A study of Mus musculus with 10 samples.

Results

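The genes described here make, break down and carry out the action of cyclic AMP in αTC1, a line of glucagon-producing cells that came from a tumour of mouse pancreatic α cells. They were chosen by symbol: adenylyl cyclases (Adcy), phosphodiesterases (Pde), subunits of protein kinase A (Prkac and Prkar), kinase A anchoring proteins (Akap), CREB-regulated transcription coactivators (Crtc) and salt-inducible kinases (Sik), together with Creb1, Crem and Atf1. The authors' counts cover 33212 entries, of which 68 carried such a symbol, and the 51 with a mean of at least 0.2 CPM (a per-million count, so that libraries of unlike depth compare) over all libraries were kept; they stand for 50 genes, since Pde4d has 2 entries. The rule for membership used symbols and overall level, not the difference between treatments. It was, however, set with earlier results of these data known. Just inside the minimum lay Pde2a at a mean of 0.224 CPM and just outside it Adcy10 at 0.187 CPM.

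To see what enzalutamide does to these cells, polyadenylated RNA was sequenced from cells kept for 48 h with 10 μM enzalutamide, an androgen receptor antagonist used in prostate cancer, or with DMSO for the same time. The cells of both groups grew in low-glucose DMEM with serum, and the labels name no genetic change in either. Each group had 5 libraries, labelled as biological replicates without saying whether the cultures were grown on separate days, so a p-value here reflects only the spread from library to library, which may be technical. A tumour-derived line is a limited model of islet α cells.

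Cyclic AMP is made from ATP by adenylyl cyclases, which stimulatory G proteins switch on, and is destroyed by phosphodiesterases. When it binds the regulatory subunits of protein kinase A, the catalytic subunits become active. These phosphorylate CREB, and also salt-inducible kinases, which otherwise hold CRTC coactivators in the cytoplasm, so that CREB and CRTC together switch on target genes. In islet α cells cyclic AMP is known for promoting glucagon secretion and for stimulating the glucagon gene.

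Libraries held between 59557697 and 68603842 counts, and 3 counts, which is as much as a reading of 0 can hide, came to between 0.0437 and 0.0504 CPM (counting error only). Defining α cell markers were present, with Gcg at a mean of 15269 ± 440.1 CPM under DMSO and 8466 ± 389 CPM under enzalutamide (SD, n = 5 each, as for all values given with ±); summed over the 9 listed α cell markers, libraries ran from 19486 to 20729 CPM in DMSO and from 11521 to 12821 CPM in enzalutamide. Gcg, Ttr and Slc38a5 of that list were lower, and the part of this shift in the results was not tested. Ins1, Pdx1, Sst, Ppy, Prss2, Krt19, Cdh5 and Ptprc, markers of other pancreatic and stromal cells, had 0 counts in every library. The 6 β cell markers, of which Nkx6-1 gave nearly all counts, summed to between 44.3 and 49 CPM in DMSO and between 45.8 and 49.5 CPM in enzalutamide. In such bulk RNA a lower value can mean fewer cells with the transcript or less of it per cell, and these cannot be told apart.

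Among the 51 entries, 13 were higher and 11 lower in enzalutamide, and the changes were small. With p-values from the quasi-likelihood test of edgeR, adjusted by Benjamini-Hochberg over all 14156 genes tested, and a threshold of 0.05, that is 24 entries, or 47.1%, against 37.8% of all genes tested (19% higher and 18.8% lower). Since the members were chosen with earlier results of these data known, these shares are no test of the pathway. All 51 entries passed the filter on low counts, and 27 did not pass the test. The median log2 fold change was 0.03 over the entries and 0.01 over all genes, and the median absolute log2 fold change was 0.16 in both. Groups did not overlap for 17 entries, 9 with enzalutamide above and 8 below, where 26.8% of all genes tested showed no overlap. With libraries scaled to total counts alone, 13 entries were higher and 8 lower, and the share of calls that were higher over all genes went from 50.3% to 60.7%. Cyclases numbered 5 (1 higher, 4 not passed), phosphodiesterases 19 (4 higher, 4 lower) and effectors 27 (8 higher, 7 lower). The shares called were 20%, 42.1% and 55.6%, against the 37.8% of all genes tested.

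**Figure D1:**
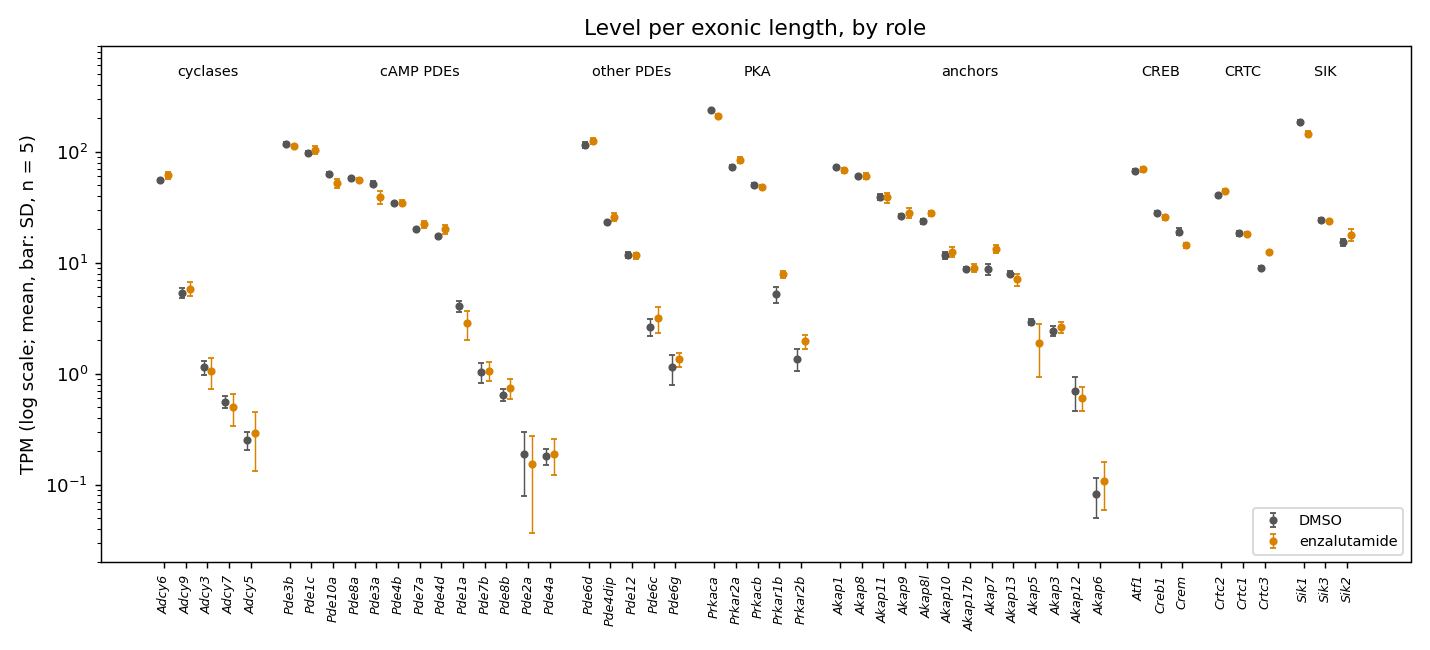
Level per exonic length (TPM, per-million transcripts, log scale) of the 50 entries with an annotated length, as the mean and SD of 5 DMSO (grey) and 5 enzalutamide (orange) libraries, grouped by role. Prkaca and Sik1 stand highest in DMSO at 236 and 187 TPM, and each family except the CREB and CRTC genes spans more than a factor of 10.

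Levels of different genes were compared per length, as TPM, in which each gene's counts are divided by its annotated exon length and scaled to the same total in every library. In DMSO the order began with Prkaca, which encodes the α catalytic subunit of kinase A, at 236 ± 4.06 TPM and Sik1 at 187 ± 5.05 TPM, each above all values of the next. Pde3b, a cGMP-inhibited phosphodiesterase, followed at 118 ± 4.06 TPM and Pde6d, which encodes a prenyl-binding chaperone, at 116 ± 6.99 TPM; the libraries of these neighbours overlapped. Pde1c, a calcium-stimulated phosphodiesterase, came next at 98.4 ± 3.01 TPM. From Prkar2a at rank 6 down to Prkacb at rank 14, neighbours in the order overlapped throughout. The lowest entries were Pde2a, Pde4a and Akap6, at 0.187, 0.18 and 0.0824 TPM.

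Of the 5 cyclases, Adcy6 passed the test. Adcy6, a cyclase inhibited by calcium, was at 119.9, 125, 117, 118 and 117 CPM in DMSO libraries 1 to 5 and at 133, 124, 127, 133 and 139 CPM in enzalutamide libraries 1 to 5. Its groups overlapped through a single pair of libraries, since enzalutamide library 2 lay below DMSO library 2. The difference was a rise of 1.1-fold (log2 fold change 0.14 with SE 0.0361, adjusted p = 0.00642). Adcy6 also supplied most cyclase transcripts, with 88.3 ± 0.899% of the summed cyclase TPM in DMSO and 88.9 ± 1.25% in enzalutamide.

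The other 4 cyclases did not pass. Adcy9, a broadly expressed form, was at 8.9 ± 0.973 and 9.5 ± 1.27 CPM (its log2 fold change of 0.09 had a 95% interval of -0.10 to 0.29). Adcy3, Adcy7 and Adcy5 lay between 0.578 and 2.27 CPM in DMSO, with log2 fold changes from -0.19 to 0.20. Below the minimum of 0.2 CPM were 17 entries, and 6 of these were listed at 0 in every library: Adcy4, Adcy8, Akap2, Akap4, Pde6a and Prkar1a. The zero of Prkar1a, which encodes a regulatory subunit found in most cells, is the deposited value and its origin was not tested, so no statement about that subunit is made.

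Of 14 entries for phosphodiesterases that break down cAMP, 3 were higher, 4 lower and 7 did not pass (median log2 fold change 0.02). That is 50% called, against 37.8% of all genes tested, which also split about evenly between higher (19%) and lower (18.8%). In DMSO 5 genes, Pde3b, Pde1c, Pde10a, Pde8a and Pde3a, each held over 10% of the summed TPM of this group, from 25.3% down to 11.1%. The fallers were Pde3a, Pde10a, Pde1a and Pde3b, and the risers both Pde4d entries and Pde7a. Pde3a and Pde3b are cGMP-inhibited forms, Pde10a and Pde1a degrade both cyclic nucleotides, and Pde4d and Pde7a are specific for cAMP.

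Pde3a was at 192, 211, 208, 222 and 218 CPM in DMSO libraries 1 to 5 and at 162, 128, 157, 165 and 169 CPM in enzalutamide libraries 1 to 5. Every enzalutamide value lay below every DMSO value, with enzalutamide library 2 the lowest of all. The gene (chromosome 6, 141249269 to 141507448) fell 1.35-fold (log2 fold change -0.43 with SE 0.0593, adjusted p = 2.1e-05); without enzalutamide library 2 the log2 fold change was -0.36 and the adjusted p 1.44e-06.
Pde10a, read library by library in the same order, was at 241, 263, 253, 268 and 269 CPM in DMSO and at 214, 190.4, 209.7, 216 and 231 CPM in enzalutamide. These groups did not overlap either (log2 fold change -0.29 with SE 0.0443, adjusted p = 6.55e-05).
For Pde1a the DMSO values were 8.17, 7.69, 6.79, 7.12 and 9.1 CPM and the enzalutamide values 4.3, 3.41, 6.72, 5.81 and 6.49 CPM. The gap was narrow, from 6.79 CPM in DMSO library 3 to 6.72 CPM in enzalutamide library 3 (log2 fold change -0.54 with SE 0.155, adjusted p = 0.0107). Pde3b, at 343 ± 11.3 and 322 ± 4.84 CPM, had the smallest difference that passed among these genes (log2 fold change -0.09 with SE 0.029, adjusted p = 0.0181). Its adjusted p became 0.128 with total-count scaling and 0.0579 without DMSO library 5.

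Pde4d, which encodes a cAMP-specific phosphodiesterase with many promoters and isoforms, was counted under 2 identifiers. The larger entry (ENSMUSG00000021699; chromosome 13, 108449948 to 109953461, plus strand) was at 64.6, 65.6, 70.9, 66.4 and 66.3 CPM in DMSO and at 76.6, 68.3, 76.6, 75.6 and 83.6 CPM in enzalutamide. Enzalutamide library 2 fell inside the DMSO range and the other 4 lay above it (log2 fold change 0.19 with SE 0.047, adjusted p = 0.0038). The smaller entry (ENSMUSG00000074661, an identifier that GENCODE M21 does not hold) was at 16.6, 15.7, 13.8, 15.3 and 17.1 CPM and 19.9, 20.8, 21.3, 21.4 and 26.1 CPM, with no overlap. It rose 1.39-fold (log2 fold change 0.48 with SE 0.0762, adjusted p = 8.23e-05). Summed, they gave 82.5 ± 1.53 and 98.1 ± 7.38 CPM (log2 fold change 0.25 with SE 0.0449, adjusted p = 0.000261). How reads were divided between these identifiers is not given in the sources used here.

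Pde7a rose least (log2 fold change 0.13 with SE 0.0446, adjusted p = 0.0305), and its adjusted p ran from 0.05 to 0.0932 when DMSO library 1, 2, 3 or 4 or enzalutamide library 3 or 5 was left out. Pde1c, the phosphodiesterase with the most counts, was at 629.9 ± 18.3 and 658 ± 39.6 CPM and did not pass (adjusted p = 0.208); with enzalutamide library 2 left out it was at 0.0178. For Pde4b, another cAMP-specific form, the difference was close to 0 (95% interval -0.07 to 0.07). Pde8a, Pde7b, Pde8b, Pde4a and Pde2a did not pass, with log2 fold changes between -0.31 and 0.18.

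The symbol rule also took in 5 Pde genes whose products do not hydrolyse cAMP. Pde4dip, which encodes myomegalin, a scaffold of the centrosome and Golgi, rose from 125 ± 3.2 to 137 ± 6.87 CPM without overlap (log2 fold change 0.14 with SE 0.0368, adjusted p = 0.00651). Pde6d was at 80.8 ± 4.91 and 86.3 ± 6.18 CPM (adjusted p = 0.158, and 0.0497 without enzalutamide library 5). Pde12, a ribonuclease, and Pde6c and Pde6g, subunits of the photoreceptor enzymes, did not pass (log2 fold changes -0.03, 0.24 and 0.22).

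**Figure D2:**
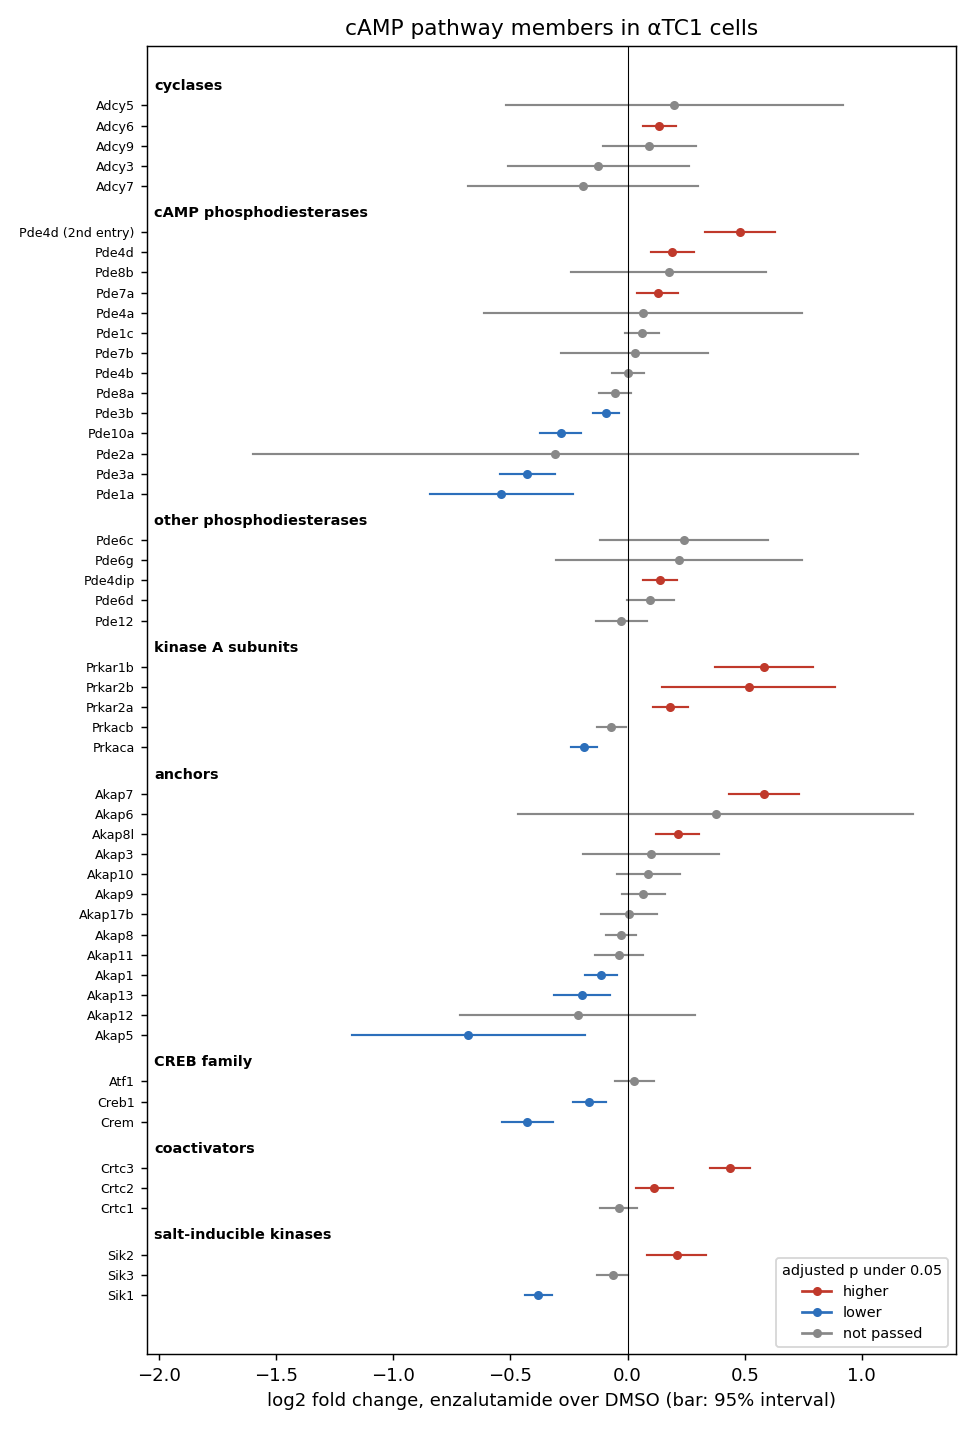
Log2 fold change of enzalutamide over DMSO for all 51 entries, with 95% intervals, grouped by role and coloured by the outcome of the test (13 higher, 11 lower, 27 not passed). Points that passed lie on both sides of 0 within the phosphodiesterase, kinase A, anchor and salt-inducible kinase groups, from -0.68 for Akap5 to 0.58 for Akap7 and Prkar1b.

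Of 5 kinase A subunit genes, 3 regulatory ones (Prkar2a, Prkar1b and Prkar2b) rose, the catalytic Prkaca fell and the catalytic Prkacb did not pass. That is 80% called, of only 5 genes, against 37.8% of all genes tested. A difference between the types of subunit was not tested. Prkaca (ENSMUSG00000005469; chromosome 8, 83972993 to 83996443) was at 192, 186, 189, 185 and 185 CPM in DMSO libraries 1 to 5 and at 161, 167, 166, 164 and 167 CPM in enzalutamide libraries 1 to 5. All enzalutamide values lay below all DMSO values, with little spread in either group. It fell 1.14-fold (log2 fold change -0.19 with SE 0.0278, adjusted p = 4.66e-05). Prkacb, the β catalytic subunit, was at 141 ± 4.8 and 134 ± 1.77 CPM and did not pass (log2 fold change -0.07, adjusted p = 0.0967).

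Prkar2a, a type II regulatory subunit that binds anchoring proteins, was at 153, 141, 151, 156 and 148 CPM in DMSO and at 172, 162, 176, 179 and 161 CPM in enzalutamide, again in library order. No enzalutamide value reached down into the DMSO range (log2 fold change 0.18 with SE 0.0377, adjusted p = 0.000945). Prkar1b, a type I subunit best known from neurons, was at 5.43, 7.25, 6.42, 7.24 and 5.19 CPM and 9.33, 10.8, 9.26, 8.31 and 9.55 CPM. This gene rose 1.5-fold and also showed no overlap (log2 fold change 0.58 with SE 0.107, adjusted p = 0.000328). Prkar2b, the other type II subunit, was low, at 1.99, 1.9, 1.44, 1.26 and 1.31 CPM in DMSO and 2.8, 1.99, 2.14, 2.25 and 2.12 CPM in enzalutamide. Its lowest enzalutamide value, 1.99 CPM, lay just above its highest DMSO value, also 1.99 CPM when rounded (log2 fold change 0.52 with SE 0.188, adjusted p = 0.0383). The adjusted p of Prkar2b was between 0.0521 and 0.105 when any of DMSO libraries 3, 4 and 5 or of enzalutamide libraries 1, 3 and 4 was left out.

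Per length, Prkaca held 82.5 ± 0.676% of catalytic subunit TPM in DMSO and 81.3 ± 0.327% in enzalutamide. Catalytic subunit TPM summed to 287 ± 3.75 in DMSO and 259 ± 7.61 in enzalutamide, and that of the 3 regulatory subunit genes to 80.1 ± 2.53 and 94.5 ± 4.55. The regulatory sum lacks Prkar1a.

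Promoter windows were examined for the core of the cAMP response element, TGACG or, on the other strand, CGTCA, to which CREB binds, and for the full palindrome TGACGTCA, which contains the core on both strands. RefSeq entries on GRCm38.p6 were found for 40 of the 50 genes, with 75 start sites. Adcy6, Akap12, Crem, Crtc2, Pde3a, Pde3b, Pde6c, Pde6g, Pde7a and Sik1 had no entry. In the 250 bases before the start, 12 of 75 windows (16%) held the core, against 17.8% of all 32851 RefSeq windows of that length, and 0 held the palindrome, against 1.55%. The core was in 1 of 16 windows of genes that rose, 2 of 14 of genes that fell and 9 of 45 of genes that did not pass. The windows of the 3 genes that passed the test and held a core are shown with the core in capitals and without bases in annotated exons. Distances are from the start that belongs to the window shown. Prkaca (chr8:83972728-83972977, plus strand) has cores 120 and 6 bases before that start. Prkar1b (chr5:139150002-139150222, minus strand) has a core 49 bases before it, and Pde1a (chr2:80039030-80039152, minus strand) 166 bases before it. Each of these genes has further listed starts, whose windows held no core. In the Pde1a window 127 of the 250 bases lie in annotated exons and are left out.
Prkaca: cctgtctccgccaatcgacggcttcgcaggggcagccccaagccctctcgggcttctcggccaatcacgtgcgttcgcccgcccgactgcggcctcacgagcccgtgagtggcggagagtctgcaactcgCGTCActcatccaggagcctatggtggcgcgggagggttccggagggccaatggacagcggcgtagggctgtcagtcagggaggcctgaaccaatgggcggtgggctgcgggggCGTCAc
Prkar1b: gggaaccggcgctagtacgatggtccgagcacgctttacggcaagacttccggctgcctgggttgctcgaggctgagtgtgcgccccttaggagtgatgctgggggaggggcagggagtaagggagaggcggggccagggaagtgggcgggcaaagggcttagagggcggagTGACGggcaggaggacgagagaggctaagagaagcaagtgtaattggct
Pde1a: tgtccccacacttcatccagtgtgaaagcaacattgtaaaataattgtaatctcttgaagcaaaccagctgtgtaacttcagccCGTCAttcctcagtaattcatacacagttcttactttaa
Prkaca and Pde1a fell and Prkar1b rose, so a core was present with either direction. A match is a description of these letters and was not tied to any binding measurement.

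Anchoring proteins hold kinase A at particular places in the cell. Of 13 genes 2 rose, 3 fell and 8 did not pass (median log2 fold change 0.01), so that 38.5% were called, close to the 37.8% over all genes tested. Akap7, an anchor at membranes and ion channels, was at 11.2, 14.2, 12.5, 11.4 and 11.6 CPM in DMSO and 16.9, 18.1, 20.7, 17.3 and 18.3 CPM in enzalutamide, libraries in order. The lowest enzalutamide value was above the highest DMSO value. Akap7 (ENSMUSG00000039166; chromosome 10, 25169090 to 25307870) rose 1.5-fold (log2 fold change 0.58 with SE 0.0762, adjusted p = 1.11e-05). The nuclear protein gene Akap8l rose from 38.3 ± 1.73 to 44.5 ± 2.02 CPM, also without overlap (log2 fold change 0.21 with SE 0.0466, adjusted p = 0.00142).

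Akap1, whose product sits on the outer membrane of mitochondria and which had the highest TPM of the anchors (72.8 ± 2.28 in DMSO), fell slightly (log2 fold change -0.11 with SE 0.0345, adjusted p = 0.0154). With total-count scaling the adjusted p of Akap1 was 0.0896, and without DMSO library 4 it was 0.0502. Akap13, a large anchor that is also a guanine nucleotide exchange factor, fell from 53.4 ± 2.33 to 46.6 ± 4.74 CPM with overlap (log2 fold change -0.19 with SE 0.0602, adjusted p = 0.0163). Akap5, a plasma membrane anchor that also binds calcineurin, was at 6.96, 5.82, 6.84, 6.16 and 6.2 CPM in DMSO and 4.85, 1.64, 2.24, 5.34 and 5.9 CPM in enzalutamide. Enzalutamide libraries 2 and 3 were far lower than the other 3, of which library 5 overlapped the DMSO range. Its log2 fold change of -0.68 (SE 0.254, adjusted p = 0.0431) was the largest in size of the 51 and the only passing change over 1.5-fold, a size that 4.44% of all genes tested passed. The call of Akap5 was lost in 10 of 20 alternatives, with adjusted p up to 0.124. These were the leaving out of each DMSO library in turn and of enzalutamide library 2 or 3. Scaling to total counts, testing without a count filter and DESeq2 were the rest. Another of the 20, which kept only members at a mean CPM of at least 1, reused the main fit and could not change the call.

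Akap8, a nuclear anchor at 168 ± 4.75 and 165 ± 5.63 CPM, did not pass (log2 fold change -0.03, 95% interval -0.09 to 0.03). The remaining anchors that did not pass were Akap9 of the centrosome and Golgi, Akap11, Akap10, Akap17b, Akap3, Akap12 and Akap6, with log2 fold changes between -0.21 and 0.38. Akap9 had an adjusted p of 0.0191 without enzalutamide library 2. That library had the lowest value of its group for 21 of the 51 entries, where the other enzalutamide libraries had between 3 and 11, and the entries took 0.384% of its counts against 0.406% to 0.429% in the remaining 9 libraries. Its part in the results was not tested beyond leaving it out, which gave 14 entries higher and 10 lower.

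Of the CREB family, Crem and Creb1 fell and Atf1 did not pass (66.7% of 3 genes called, against 37.8% of all genes tested). Crem, which encodes both activators and the inducible repressor ICER, was at 38.2, 34.4, 35.8, 38.4 and 32.4 CPM in DMSO libraries 1 to 5 and at 26.2, 26.8, 26.7, 25.2 and 28.4 CPM in enzalutamide libraries 1 to 5. The groups were well apart, from a lowest DMSO value of 32.4 CPM to a highest enzalutamide value of 28.4 CPM. Crem fell 1.34-fold (log2 fold change -0.43 with SE 0.0546, adjusted p = 8.83e-06), and gene counts do not separate its isoforms.
Creb1 was at 124, 128, 118, 121 and 129.6 CPM and 114, 107, 109, 109 and 117 CPM, with all enzalutamide values below all DMSO values. Its fall was smaller, 1.12-fold (log2 fold change -0.16 with SE 0.0364, adjusted p = 0.00176). Atf1, the family member with the highest TPM (67.3 ± 2.45 in DMSO), was at 65.7 ± 2.87 and 67 ± 2.96 CPM (log2 fold change 0.03, 95% interval -0.05 to 0.11).

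The coactivators of CREB were higher or not called, with 2 of 3 up (66.7% called, against 37.8% of all genes tested). Crtc3 was at 27.7, 29.3, 27.6, 28.8 and 28.8 CPM in DMSO and at 39.1, 39, 39.7, 38.4 and 36.3 CPM in enzalutamide. It rose 1.35-fold without overlap (log2 fold change 0.44 with SE 0.0437, adjusted p = 5.29e-07), and its share of the summed CRTC TPM was 13.3 ± 0.431% in DMSO and 16.5 ± 0.541% in enzalutamide. Crtc2, a coactivator known for hormone control of glucose production in liver and the most abundant of these per length, rose from 52.9 ± 1.81 to 57.3 ± 2.16 CPM (log2 fold change 0.11 with SE 0.0406, adjusted p = 0.0342). The adjusted p of Crtc2 was between 0.0518 and 0.0978 when DMSO library 3 or 4, or enzalutamide library 1, 2 or 4, was left out. Crtc1 was at 65.9 ± 3.51 and 64.2 ± 1.27 CPM (adjusted p = 0.502).

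Sik1 and Sik2 moved in opposite directions (66.7% of 3 genes called, against 37.8% of all genes tested). Sik1, which is itself induced by cAMP through CREB and restrains CRTC, was at 317, 309.5, 303, 297 and 307 CPM in DMSO libraries 1 to 5 and at 233, 230.0, 236, 231 and 248 CPM in enzalutamide libraries 1 to 5. The lowest DMSO library stood at 297 CPM and the highest enzalutamide library at 248 CPM, so the groups were clearly apart. Sik1 (ENSMUSG00000024042; chromosome 17, 31844250 to 31855804, minus strand) fell 1.3-fold (log2 fold change -0.38 with SE 0.0301, adjusted p = 3.37e-08), the lowest adjusted p of the 51 entries. Sik2, at 43.4, 45.2, 45.4, 51.4 and 46.5 CPM in DMSO and 52.8, 45.8, 53.8, 54.9 and 60.9 CPM in enzalutamide, rose with overlap, since enzalutamide library 2 lay within the DMSO range (log2 fold change 0.21 with SE 0.0637, adjusted p = 0.0149, and adjusted p = 0.051 without DMSO library 1). Sik3 did not pass (72.3 ± 2.26 and 69.1 ± 0.767 CPM, adjusted p = 0.16). Of the summed SIK TPM, Sik1 held 82.6 ± 0.849% in DMSO and 77.9 ± 0.494% in enzalutamide.

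**Figure D3:**
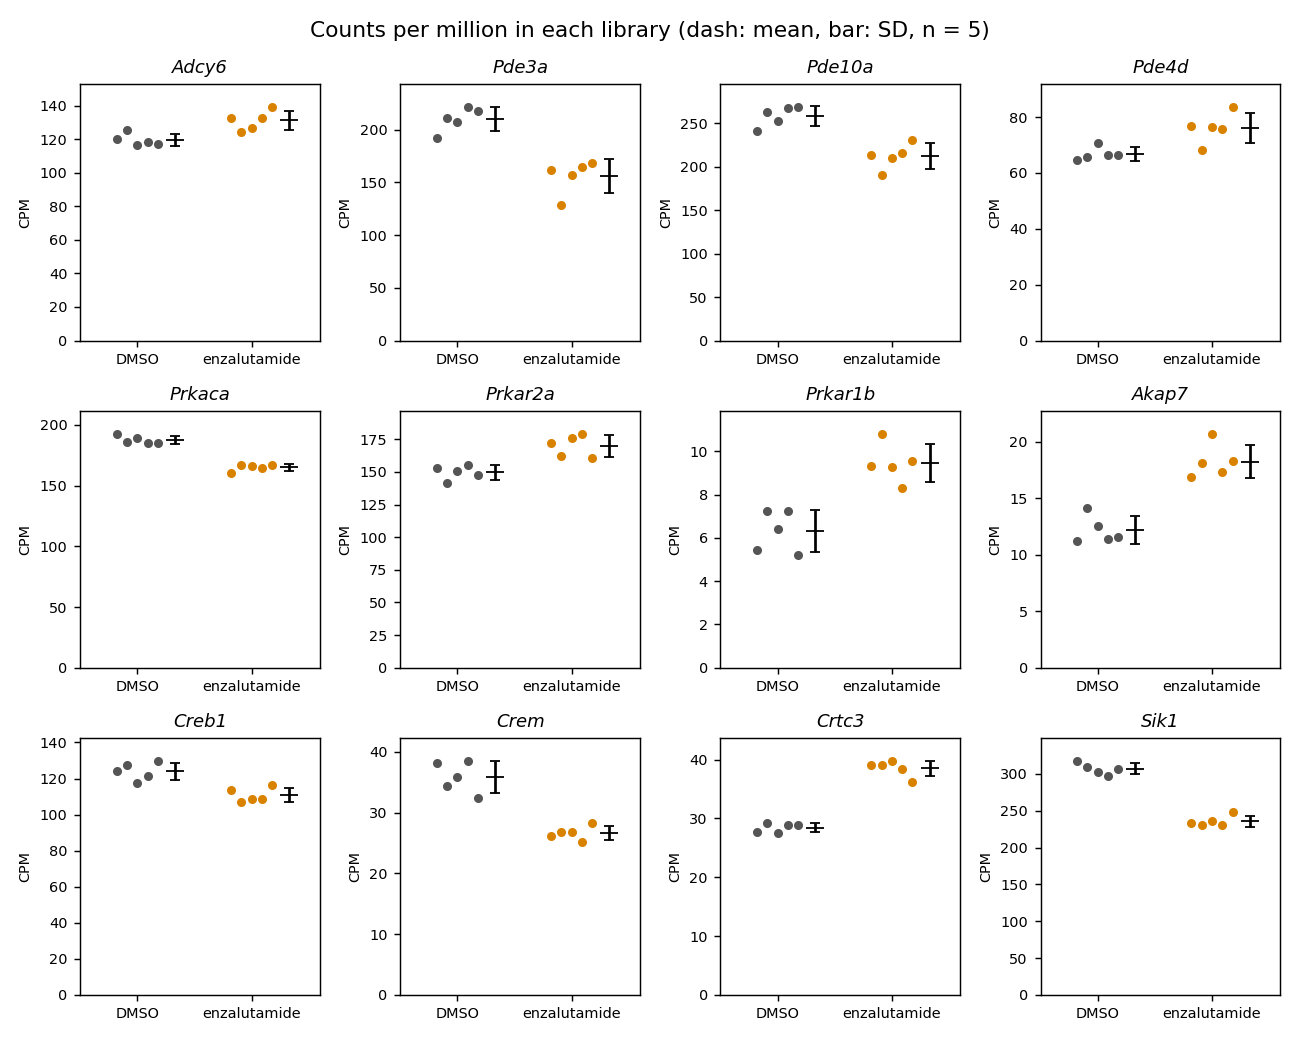
CPM in each of 5 DMSO (grey) and 5 enzalutamide (orange) libraries for 12 members, with the mean and SD beside the points and axes from 0. Sik1, Crem, Creb1, Prkaca, Pde3a and Pde10a show lower enzalutamide values without overlap, Crtc3, Akap7, Prkar2a and Prkar1b higher values without overlap, and Adcy6 and Pde4d (larger entry) higher values with overlap.

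**Figure D4:**
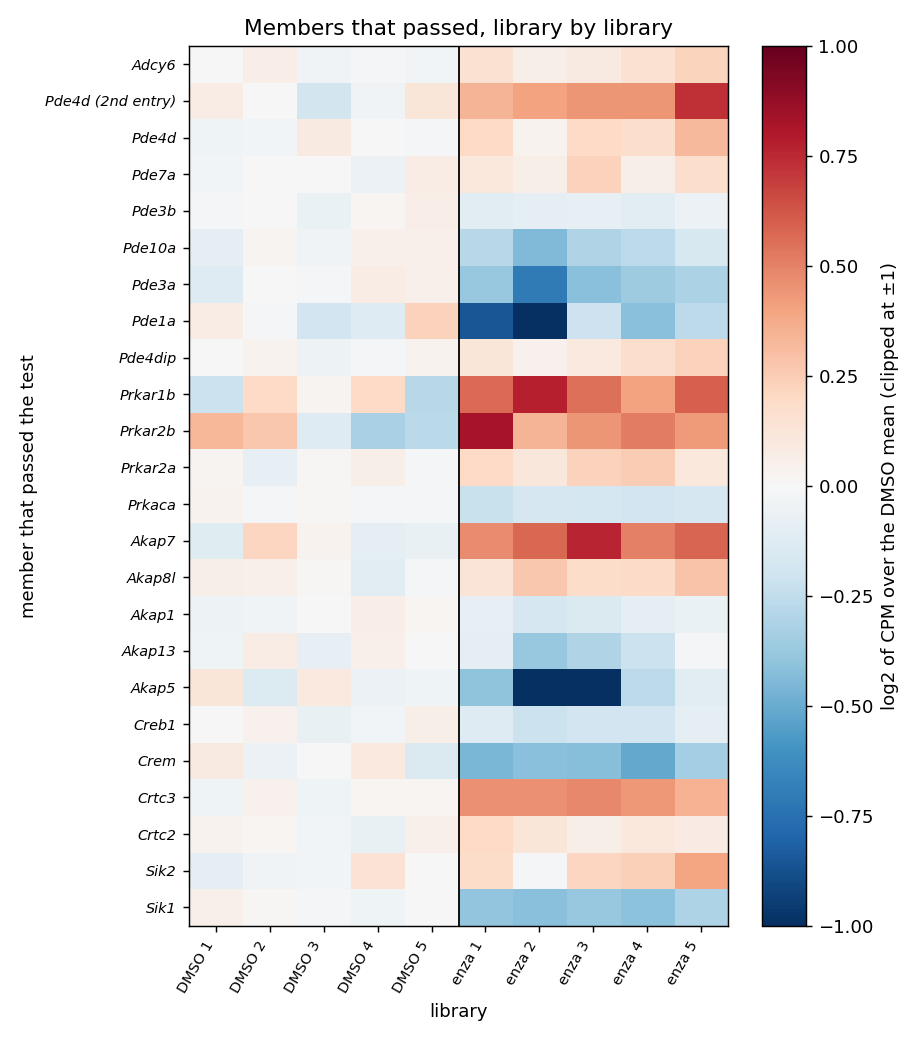
Log2 of each library's CPM over the DMSO mean for the 24 entries that passed, with rows ordered by role and columns by library; the colour scale stops at -1 and 1, and 3 cells lie below it. Enzalutamide columns are mostly of a single colour per row, and the deepest cells are those of Akap5 in enzalutamide libraries 2 and 3 and of Pde1a in library 2.

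Other genes of the pathway were read from lists. Of 17 G protein and cyclase regulator genes 4 rose and 4 fell (47.1% called, against 37.8% of all genes tested, median log2 fold change -0.04). Gnas, which encodes the stimulatory α subunit and overlaps other transcripts at its locus, went from 4482 ± 106 to 3957 ± 137 CPM (log2 fold change -0.18 with SE 0.0258, adjusted p = 2.97e-05). Gnao1, an inhibitory-class α subunit, rose (log2 fold change 0.25 with SE 0.0359, adjusted p = 3.53e-05), and Rgs4, which speeds the shut-off of inhibitory G proteins, fell (log2 fold change -0.68 with SE 0.0441, adjusted p = 2.54e-09).

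Of 16 receptors that act through the stimulatory G protein 8 had enough counts to test. Of these 2 fell and 6 did not pass (25% called, against 37.8% of all genes tested). Those that fell were Gpr119, a lipid receptor (log2 fold change -0.51 with SE 0.0738, adjusted p = 2.96e-05), and Adora2a, an adenosine receptor (log2 fold change -0.73 with SE 0.115, adjusted p = 7.77e-05). The glucagon-like peptide receptor gene Glp1r had 0 counts in every library.

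Among 13 genes for other cAMP effectors and kinase A inhibitors, 4 of the 7 tested rose and 3 did not pass (57.1% called, against 37.8% of all genes tested, median log2 fold change 0.22). Those that rose were the cyclic nucleotide-gated channel genes Hcn2 (log2 fold change 0.39 with SE 0.0441, adjusted p = 2.09e-06) and Hcn3 (log2 fold change 0.35 with SE 0.0652, adjusted p = 0.000342) and the kinase A inhibitor genes Pkia, from 29.2 ± 2.23 to 34.1 ± 2.66 CPM (log2 fold change 0.22 with SE 0.0625, adjusted p = 0.00887), and Pkig, from 39.3 ± 1.89 to 43.6 ± 2.86 CPM (log2 fold change 0.15 with SE 0.0518, adjusted p = 0.0282). Rapgef4, which encodes the cAMP-activated exchange factor Epac of islets, was at 123 ± 4.96 and 126 ± 7.27 CPM and did not pass (adjusted p = 0.55).

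In the list of CREB partners and CRTC control, 1 of 13 tested genes rose and 4 fell (median log2 fold change -0.07). That is 38.5% called, close to the 37.8% of all genes tested. The falls with the lowest adjusted p were those of Ywhae, an adaptor of the family that retains phosphorylated CRTC (log2 fold change -0.25 with SE 0.0321, adjusted p = 8.8e-06), Ppp2ca, a phosphatase catalytic subunit (log2 fold change -0.23 with SE 0.0322, adjusted p = 1.9e-05), and Creb3l2, a membrane-bound relative of CREB (log2 fold change -0.30 with SE 0.0411, adjusted p = 1.93e-05). The gene that rose was Ppp3ca, a catalytic subunit of calcineurin, which dephosphorylates CRTC (log2 fold change 0.25 with SE 0.0478, adjusted p = 0.000398), whereas its regulatory partner Ppp3r1 fell (log2 fold change -0.12 with SE 0.0286, adjusted p = 0.00351). Of 9 genes of cGMP synthesis and cGMP kinases 3 were tested and 1 was called (33.3%, against 37.8% of all genes tested). This gene, Prkg1, rose from a low level of 0.686 ± 0.119 to 1.16 ± 0.352 CPM (log2 fold change 0.76 with SE 0.27, adjusted p = 0.0348). That call was lost in 7 of 19 alternatives, with adjusted p up to 0.104. It was lost on leaving out any of DMSO libraries 2 to 5 or of enzalutamide libraries 4 and 5, and with the replicate number as a block. The 19 include the setting that reused the main fit.

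Of 21 tested genes that CREB is known to induce, 9 fell and 6 rose (median log2 fold change -0.02), which is 71.4% called, against 37.8% of all genes tested. All 15 had no overlap between groups, where 26.8% of all genes had none. The list was drawn up with earlier results of these data known, so these shares are no test of genes induced by CREB. The lowest adjusted p values belonged to the nuclear receptor genes Nr4a1 (-3.50) and Nr4a2 (-2.06) and to Vgf, a secreted granule protein precursor, which went from 96.4 ± 2.84 to 36.7 ± 2.87 CPM (log2 fold change -1.39 with SE 0.0488, adjusted p = 8.34e-13). Risers in the same list, named after their values were seen, were Ppargc1a, a transcriptional coactivator of mitochondrial genes (log2 fold change 0.38 with SE 0.0373, adjusted p = 4.09e-07), and Atf3, a stress-induced factor (log2 fold change 0.65 with SE 0.0862, adjusted p = 1.3e-05). Of the 8 genes of this list that passed at over 1.5-fold, Atf3 alone rose. Those that fell were Nr4a1, Nr4a2, Vgf, Fos (log2 fold change -2.44), Nr4a3 (-1.47), Egr1 (-1.23) and Fosb (-0.62). Over all its called genes, small changes included, the list shows no single direction. Several of these genes are also induced by other signals, such as ERK for Egr1 and Fos, and the signal behind the changes was not tested.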

How the data were processed

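Gene counts from 10 libraries (5 with DMSO, 5 with enzalutamide) were used. The authors deposited whole-number counts per Ensembl gene for each library, and a second table whose unit is a signal, counts divided by a size factor for each library; of its 20240 genes, 20039 had a unique symbol in the count table, and all of those gave the deposited counts within 0.01 once multiplied by a factor per library. HISAT2, StringTie, DESeq2 and the mm10 build are named per the submitters' processing notes, without versions; of strand and multi-mapping reads nothing is said there. No column of per-sample values was left unused (0 columns).

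Counts were filtered with filterByExpr and scaled by trimmed mean of M values, and 14156 genes were tested with edgeR 4.0.16 (quasi-likelihood, two-sided, R 4.3.3, all 10 libraries, no covariate) with Benjamini-Hochberg adjustment; the biological coefficient of variation was 8.39%. The CPM and TPM values printed were computed here, with CPM on the scaled library sizes, except for the minimum of 0.2 CPM, which used column totals. Of the identifiers, 32059 (96.5%) were in GENCODE M21, which gave positions and exon lengths. Replicates of a group differed by more than counting error (chi-square 9.23 to 37.3 times its degrees of freedom). That measure cannot tell separate cultures from repeated preparations of the same RNA. On simulated data for the same 14156 genes the test called 62% of 50 genes changed 1.2-fold, 70% at 1.5-fold, 86% at 2-fold and 84% at 3-fold. There 13956 genes were unchanged, whereas 37.8% of genes passed in the real data. With so few changed genes the adjustment sets a stricter cut-off, so these rates are not those of the reported test.

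The members and lists were chosen with earlier results of these data known. Named were Sik1 and Pde4d and all kinase, CREB, CRTC and SIK genes. In each role the passing members of lowest adjusted p (at most 5) and the 2 with the highest TPM were named too. Up to 3 passing genes were named in each other list. Pde7a, Pkig, Rapgef4, Ppp3r1, Per1, Ppargc1a, Atf3, Bdnf, Rgs2, Scg2, Glp1r, Fos, Nr4a3, Egr1 and Fosb were named after their values were seen. Some genes of the lists are not reported here by name. Rgs2 stands in 2 lists, and 2 guanylyl cyclase genes were matched by older symbols. Alternatives were relative log expression scaling or total counts alone, no filter, a mean CPM of at least 1 for genes or members, a replicate block, summed symbols, DESeq2 1.42.0, limma 3.58.1 (voom, or trend on log2 of the deposited normalized values plus 1), and leaving out each library. Same-numbered libraries did not deviate together (correlations -0.00849 to 0.0451), so the numbers were not taken as pairs.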

Additional observations from a re-analysis of the deposited data

Results flagged for a closer look

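Among 102 groups of 5 libraries (51 entries in 2 treatments), 5 held a library far from its 4 fellows by Dixon's 95% criterion, and chance alone gives about 1 in 20, or 5.1. Akap6 was at 0.123 CPM in DMSO library 2, where the nearest library was at 0.425 CPM. Pde3a was at 128 CPM in enzalutamide library 2, the nearest at 157 CPM. The larger Pde4d entry was at 70.9 CPM in DMSO library 3, the nearest at 66.4 CPM, and the smaller Pde4d entry was at 26.1 CPM in enzalutamide library 5, the nearest at 21.4 CPM. Adcy3 was at 3.21 CPM in enzalutamide library 4, the nearest at 1.93 CPM. Akap6 and Adcy3 did not pass the test between treatments, and Pde3a passed with enzalutamide library 2 left out as well.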

How the results depend on the processing

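The counts of 13 higher and 11 lower entries stayed within 1.5 times under each of the alternatives run: 13 and 8 with total counts alone, 13 and 10 with no filter or with DESeq2, 13 and 11 with limma-voom, 11 and 11 with limma-trend (whose table lacks both Pde4d entries), 12 and 11 with summed symbols, and 10 to 14 higher and 9 to 11 lower when 1 library was left out. With the replicate block they were 13 and 11 too, and 3 of 5 replicate numbers correlated best with their own partner; the block changed no call among the 51 entries. Of 1007 values of the entries over these alternatives, 972 stayed on their side of the threshold, 32 lost and 3 gained a call, and 0 called values changed sign. The setting that kept only members at a mean CPM of at least 1 reused the main fit, so its values are among the 972 by construction. Calls held in all alternatives for 17 of 24 entries, and 24 of 27 stayed uncalled. Where Akap5, Pde7a, Prkar2b, Crtc2, Akap1, Pde3b and Sik2 lost theirs the cause was not tested. Entries near 0.2 CPM rest on few counts, with 3 counts at 0.0437 to 0.0504 CPM, and wide intervals limit what can be said of them.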
